A study of Mus musculus with 16 samples.

Results

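Trbv24 is 1 of 35 T cell receptor β chain (TCRβ) V genes found in tumor-infiltrating T cells of mice with subcutaneous pancreatic tumors. Its members are all rearrangements that the deposited data assign to TCRBV24-01, which number 6604 of 198953 unique rearrangements in 16 mice. Of these, 2032 of 126344 in-frame rearrangements, 4389 of 70245 out-of-frame rearrangements and 183 of 2364 rearrangements with a stop codon in the junction carried Trbv24. The gene was singled out for its share of in-frame templates in treated mice, so differences between treatments in its in-frame values are described here and carry no test. A template is a starting molecule as estimated by the sequencing service, and a unique rearrangement is 1 distinct nucleotide sequence in 1 mouse.

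All mice were female C57BL/6 that had been injected near the flank with KPC-Luc cells, a mouse line of pancreatic ductal adenocarcinoma (PDAC) that expresses luciferase, and all were treated for 10 days. Control mice received a scrambled peptide and isotype IgG, ANT008 mice received the vasoactive intestinal peptide receptor (VIP-R) antagonist ANT008 and IgG, anti-PD-1 mice received the scrambled peptide and anti-PD-1, and combination mice received ANT008 and anti-PD-1, with 4 mice per group. Peptides were given subcutaneously at 10 µg each day and antibodies intraperitoneally at 200 µg every 3 days. T cells were selected from tumor suspensions with magnetic beads against CD90.2, a surface protein of mouse T cells, and the labels give no age. The values are receptor sequences without gene expression, so T cell identity and subset could not be checked against marker genes. The labels and the study's methods name extracted RNA but its results mention DNA, so a template could be a transcript, and more cells of a clone and more RNA per cell cannot be told apart.

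A TCRβ gene is assembled in the thymus by joining 1 V, 1 D and 1 J segment, with bases trimmed from the ends and non-templated (N) bases inserted, and the junction encodes the third complementarity-determining region (CDR3) that contacts peptide antigen. A join out of frame encodes no receptor. It persists in a T cell whose other allele was rearranged successfully, so out-of-frame rearrangements are commonly used as a reference that selection on the receptor has not shaped. Trbv24 is the Vβ17 of the older nomenclature, and mouse strains are known to differ in whether their Vβ17 allele gives a receptor at the cell surface.

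The last bases of Trbv24 before the CDR3 contained a stop codon. The 30 bases in front of the CDR3 are shown for Trbv24 and for Trbv23 and Trbv26, the nearest genes on either side of it in the RefSeq order with at least 50 out-of-frame rearrangements, and capitals mark the second codon before the CDR3 in its reading frame.
Trbv24: tctgaagaagacgactcagcactgTAGctc
Trbv23: tgcgaagcagaagactcagcactgTACttg
Trbv26: tctgaggcaggagactcagcactgTACctc
This codon read TAG in Trbv24 and TAC in both other genes. The form shown was found in 98.6% of Trbv24 rearrangements with all 30 bases in the read, in 98.3% of those of Trbv23 and in 98.1% of those of Trbv26. All 6604 Trbv24 rearrangements had been assigned to allele 02.

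An in-frame stop codon upstream of the CDR3 was present in 2023 of 2032 in-frame Trbv24 rearrangements, which is 99.6% with a 95% Wilson interval of 99.2% to 99.8%. It was present in 99.9% of the 10615 in-frame Trbv24 templates, in 4385 of 4389 out-of-frame rearrangements and in 182 of 183 rearrangements with a stop in the junction. By contrast, in the 24 other V genes with at least 50 out-of-frame rearrangements, no more than 1.83% of in-frame rearrangements had such a codon. Only the V bases within the 87-nucleotide read were searched, so a stop codon further upstream would have gone unseen. The deposited frame therefore described the junction alone, and a Trbv24 rearrangement listed as in frame or productive was one whose CDR3 was in frame. The stop codon was looked for after the values of Trbv24 were known.

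**Figure D1:**
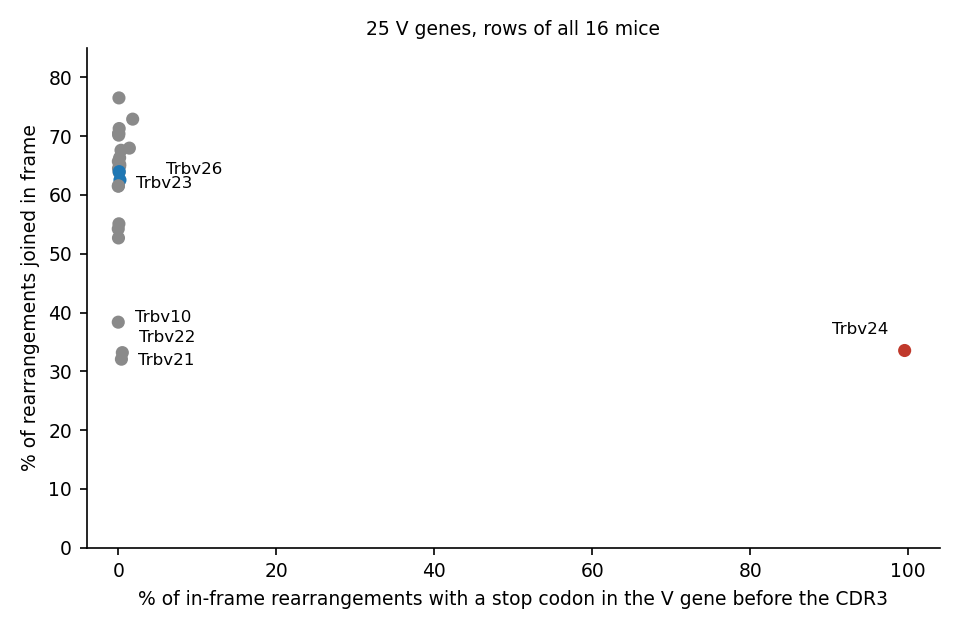
Each point is 1 V gene with at least 50 out-of-frame rearrangements over the 16 mice. The x axis gives the percent of its in-frame rearrangements with a stop codon before the CDR3 in the V bases of the read. The y axis gives the percent of rearrangements joined in frame, with Trbv24 in red and Trbv23 and Trbv26 in blue. Trbv24 lies alone at 99.6% on the x axis and at 33.5% on the y axis, a level near that of Trbv21 and Trbv22.

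The 9 in-frame exceptions were each represented by 1 template, and came from 6 mice. Their codon at this place was TAC in 5, TAT in 2, TGG in 1 and GGG in 1. All 5 with TAC had a CDR3 that a Trbv26 rearrangement of the same mouse also encoded, with 742, 34 and 9 templates for those of anti-PD-1 replicate 3, 3872 templates for that of combination replicate 3 and 150 templates for that of control replicate 2. The latter is shown as it was read, with the codon and the CDR3 in capitals.
TAC exception, control replicate 2: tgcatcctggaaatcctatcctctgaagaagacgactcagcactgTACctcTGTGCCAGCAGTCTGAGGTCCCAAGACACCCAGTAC
One of the exceptions with TAT, in anti-PD-1 replicate 3, had the CDR3 of a Trbv14 clone of 6872 templates in that mouse. The other TAT exception shared its CDR3 with a Trbv16 rearrangement of 1 template, and those with TGG and GGG shared theirs with no rearrangement of another V gene. How often the CDR3 of a Trbv24 rearrangement with TAG was also encoded by another V gene in the same mouse was not counted. The matches therefore have no reference. Whether these single templates were errors in reading or in assignment was not tested.

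With in-frame rearrangements and those with a stop in the junction counted together, Trbv24 was joined in frame in 33.5% of its rearrangements over all mice, compared with 65.7% for all other V genes. The lowest mouse was at 31.2%, the median at 33.2% and the highest at 35.9%, whereas the other V genes ranged from 59.9% to 68.3%. The mice of Trbv24 and those of the other V genes did not overlap. In-frame over out-of-frame rearrangements were 0.463 for Trbv24, 1.76 for Trbv23 and 1.65 for Trbv26. Ratios near that of Trbv24 were found for Trbv21 at 0.439, for Trbv22, an annotated pseudogene, at 0.442, and for the 12 annotated pseudogenes other than Trbv29 together at 0.463. The pool of 12 was mostly Trbv22 itself, which gave 194 of its 271 in-frame and 439 of its 585 out-of-frame rearrangements. Trbv29 is annotated as a pseudogene in the GRCm38.p6 RefSeq annotation but had a ratio of 2.66.

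To compare Trbv24 between frames within each mouse, its share of in-frame unique rearrangements was divided by its share of out-of-frame unique rearrangements. The log2 ratio averaged −1.92 ± 0.16 (SD, n = 16), ranged from −2.14 to −1.61 and was below 0 in 16 of 16 mice. An exact two-sided sign-flip permutation test gave p = 3.05e-05, the smallest that 16 mice allow, and 6.36e-05 after Benjamini-Hochberg adjustment over 25 V genes. Of these 25 genes, 7 were lower among in-frame rearrangements and 9 higher, so 28% were called in the direction of Trbv24 and 64% in either direction, and Trbv24 was the third from the lowest. Trbv23 averaged 0.04 ± 0.38 (exact permutation test, adjusted p = 0.673) and Trbv26 −0.06 ± 0.23 (exact permutation test, adjusted p = 0.332), and neither passed the test. Trbv21 averaged −2.01 and Trbv22 −1.94, and both passed. In the V bases covered by the read, a stop codon before the CDR3 was found in 0.4% and 0.515% of their in-frame rearrangements. The low ratios of Trbv21 and Trbv22 thus went without the codon seen in Trbv24, and V bases further upstream were not read.

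**Figure D2:**
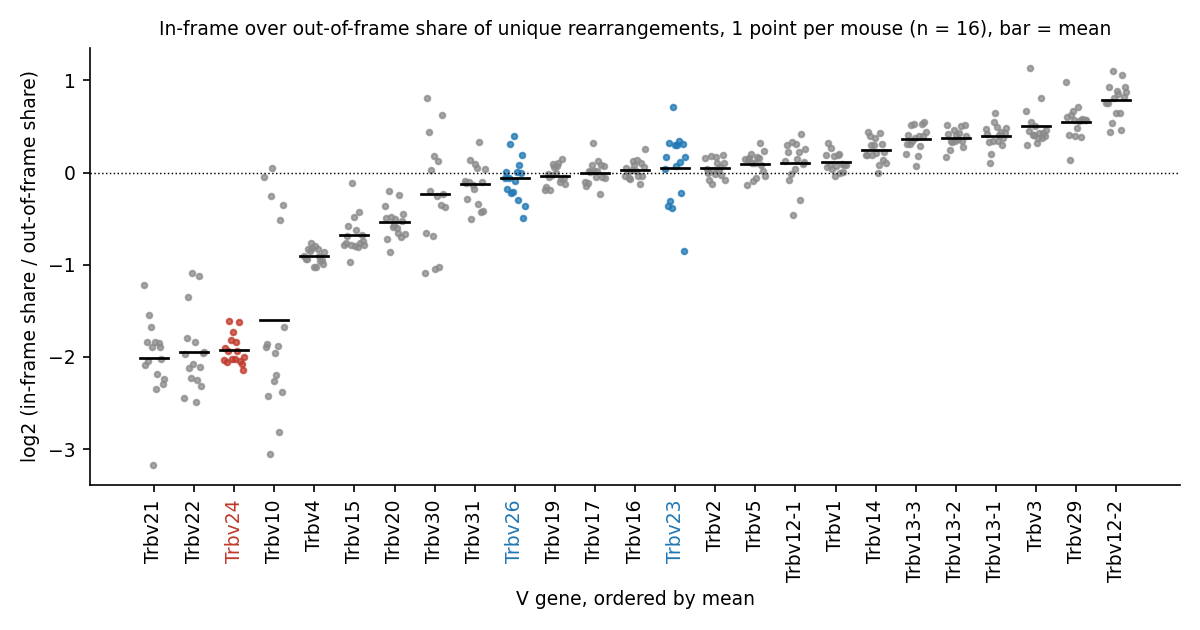
The y axis gives the log2 of a V gene's share of in-frame over its share of out-of-frame unique rearrangements, with 1 point per mouse and a bar at the mean of 16 mice for each of 25 V genes on the x axis. Trbv24 (red) lies between −2.14 and −1.61 in every mouse, whereas Trbv23 and Trbv26 (blue) are spread around 0.

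Junctions were next compared between in-frame and out-of-frame rearrangements of the same genes, a comparison added after the values had been seen. In all other V genes pooled, in-frame minus out-of-frame rearrangements differed by −0.602 ± 0.042 (SE, n = 16) nucleotides in N insertions and by −0.424 ± 0.031 nucleotides in V trimming, with fewer in frame in 16 of 16 mice for both (exact permutation test, adjusted p = 4.07e-05). In Trbv24 the corresponding differences were −0.03 ± 0.08 for N insertions and 0.08 ± 0.10 for V trimming, and neither passed the test (exact sign-flip permutation test, adjusted p = 0.681 for both). The difference between Trbv24 and the other V genes itself was 0.568 ± 0.106 nucleotides for N insertions, in the same direction in 15 of 16 mice. For V trimming it was 0.503 ± 0.101 nucleotides, in the same direction in 14 of 16 mice. Both passed the exact permutation test with an adjusted p of 0.000305 over 4 measures. For CDR3 length this difference was 0.259 ± 0.135 nucleotides (exact permutation test, adjusted p = 0.099) and for J trimming −0.06 ± 0.09 nucleotides (exact permutation test, adjusted p = 0.501), neither past the threshold.

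Among in-frame rearrangements alone, Trbv24 CDR3s were longer than those of the other V genes, at 42.7 against 42.0 nucleotides on average, a difference of 0.658 ± 0.101 (SE, n = 16; exact permutation test, adjusted p = 0.000305). N insertions were higher, at 3.94 against 3.55 nucleotides (adjusted p = 0.000488 in the exact permutation test), and V trimming was greater, at 3.19 against 2.63 nucleotides (adjusted p = 0.000305). J trimming was less, at 2.67 against 2.85 nucleotides (adjusted p = 0.00174). With rearrangements of 1 template left out, CDR3 length (−0.10 nucleotides, adjusted p = 0.586), N insertions (0.235, adjusted p = 0.0508) and J trimming (−0.20, adjusted p = 0.0508) lost their calls in the exact permutation test, while V trimming kept its call. J trimming also lost its call in means weighted by templates (exact permutation test, adjusted p = 0.0506). Trbv24 CDR3s were also longer out of frame, where no receptor is made, at 42.7 against 42.3 nucleotides, a difference of 0.399 ± 0.059 in the same direction in 15 of 16 mice (exact permutation test, adjusted p = 0.000366). Out-of-frame Trbv24 junctions had fewer N insertions than those of the other V genes, at 3.98 against 4.15 nucleotides (exact permutation test, adjusted p = 0.0134), and V trimming differed by 0.0528 ± 0.0524 nucleotides (adjusted p = 0.328).

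CDR3 lengths of Trbv24 were also more spread. The SD of length within a mouse averaged 4.94 nucleotides for Trbv24, 4.43 for all other V genes, 4.40 for Trbv23 and 4.22 for Trbv26. A CDR3 of 17 codons made up 6.37% ± 2.65 (SD, n = 16) of in-frame Trbv24 rearrangements and 3.01% ± 0.31 of those of other V genes, and a CDR3 of 13 codons made up 13.8% ± 3.0 and 18.9% ± 1.0. These lengths were picked from the distribution after it was seen and were not tested.

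**Figure D3:**
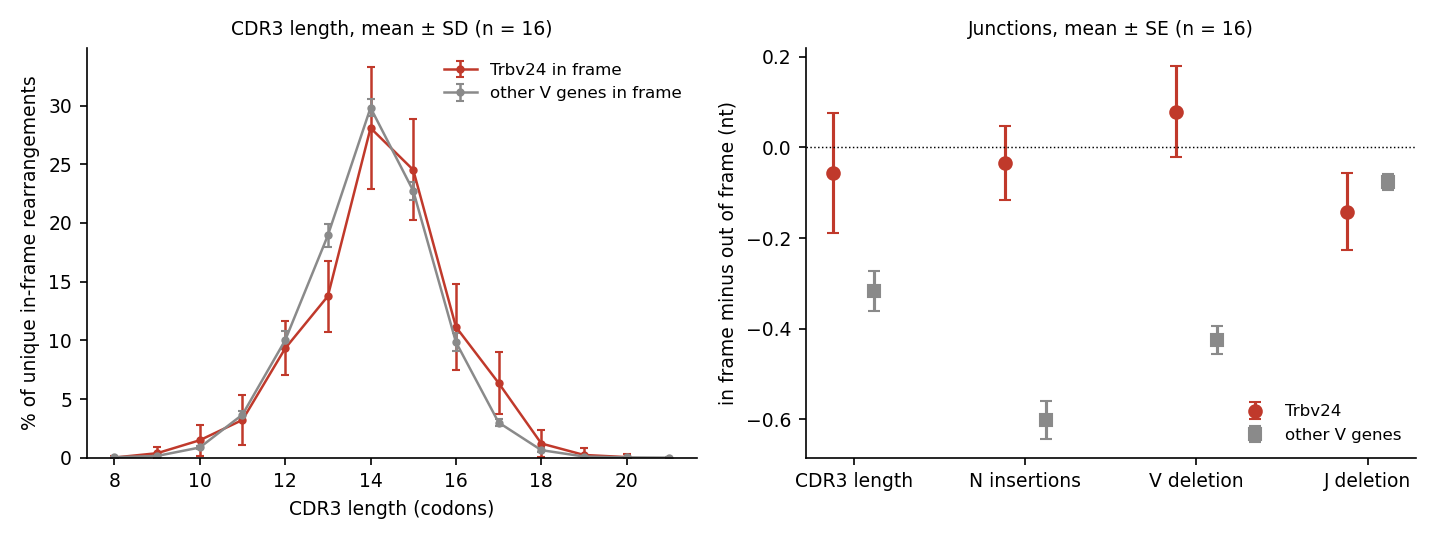
Left, the percent of unique in-frame rearrangements (y axis, mean ± SD, n = 16 mice) by CDR3 length in codons (x axis) for Trbv24 in red and all other V genes in gray. Right, the mean of in-frame minus that of out-of-frame rearrangements in nucleotides (y axis, mean ± SE, n = 16) for 4 junction measures. Trbv24 lies within about 1 SE of 0 for N insertions, whereas the other V genes lie at −0.60.

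The J genes joined most often to Trbv24 were Trbj2-7 at 16.8% ± 4.3 (SD, n = 16), Trbj2-5 at 12.1% ± 5.0 and Trbj2-1 at 10.6% ± 2.4 of in-frame unique rearrangements. Of 12 J genes, 2 differed from the other V genes, which is 16.7% of those tested, and both were lower. Trbj2-7 was lower by 4.43 ± 1.09 percentage points (SE) against 21.2% in the other V genes, in 14 of 16 mice (exact permutation test, adjusted p = 0.00989). Trbj2-1 was lower by 2.49 ± 0.56 points against 13.1%, also in 14 of 16 mice (adjusted p = 0.00842). Out of frame, Trbj2-7 remained lower, at 16.3% against 20.8% (exact permutation test, adjusted p = 0.00659), and Trbj2-1 did not differ past the threshold, at 11.4% against 11.7% (adjusted p = 0.709). Neither call was kept by templates, where the differences were −5.78 points for Trbj2-7 and −0.88 for Trbj2-1, or without rearrangements of 1 template, where they were −2.72 and −3.53 points.

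**Figure D4:**
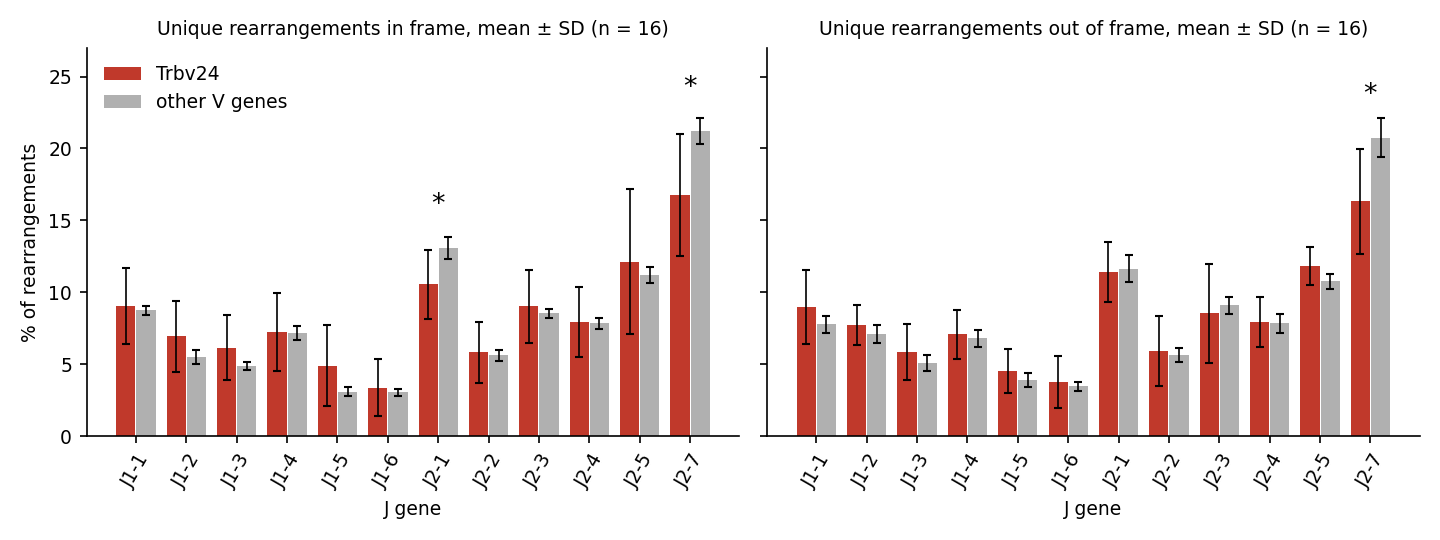
Percent of unique rearrangements (y axis, mean ± SD, n = 16 mice) joined to each of 12 J genes (x axis) for Trbv24 in red and all other V genes in gray, in frame on the left and out of frame on the right. An asterisk marks an adjusted p below the threshold in the exact permutation test. J2-7 is lower in Trbv24 in both frames and J2-1 only past the threshold in frame.

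Few Trbv24 CDR3s recurred between mice. In a mouse, 3.92% ± 1.57 (SD, n = 16) of the distinct Trbv24 CDR3 amino acid sequences were found with Trbv24 in at least 1 other mouse, with a range of 1.49% to 7.14%. For the other V genes, 17.6% ± 2.3 recurred with the same V gene, with a range of 14.8% to 20.9%, and the ranges did not overlap. The difference was −13.7 ± 0.7 points (SE), below 0 in 16 of 16 mice (exact permutation test, p = 3.05e-05). Since a rarer V gene has fewer rearrangements in which to find a match, each of 18 other V genes was thinned to the number of Trbv24 rearrangements in the same mouse, a step chosen after seeing the data. Sharing of the other V genes then averaged 9.54% ± 1.98 and the difference narrowed to −5.62 ± 0.59 points, again below 0 in 16 of 16 mice (exact permutation test, p = 3.05e-05). The lowest of the 18 thinned genes was Trbv29 at 6.00%. Trbv23, with 836 in-frame rearrangements and too few for this thinning, shared 3.29% ± 2.33, and Trbv26, with 3748, shared 16.3% ± 3.2. Without thinning, Trbv21, Trbv22 and Trbv10, with 250, 194 and 54 in-frame rearrangements, shared 0%. Trbv30, with 312, shared 6.07% ± 4.58. Low sharing was thus not particular to Trbv24, and for such rare genes it cannot be told apart from the effect of few rearrangements.

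Over all mice, 39 of 1943 Trbv24 CDR3s (2.01%) were found in at least 2 mice, and none of them in more than 3. For the other V genes it was 7627 of 106069 CDR3s (7.19%), with up to 16 mice for 1 CDR3, without thinning to the size of Trbv24. The Trbv24 CDR3 in 3 mice was joined to Trbj1-3. It had 5 templates in combination replicate 3, 2 in control replicate 2 and 1 in control replicate 3, and 1 of its rearrangements was an exception that carried TAC. The next 4 by templates were each found in 2 mice. Among these, a Trbj2-5 CDR3 had 867 templates in ANT008 replicate 3 and 1 in anti-PD-1 replicate 4, and a Trbj2-1 CDR3 had 420 in ANT008 replicate 4 and 1 in ANT008 replicate 2, so both were large in 1 mouse only. The others were a Trbj1-3 CDR3 with 16 templates in ANT008 replicate 1 and 2 in anti-PD-1 replicate 1, and a Trbj2-4 CDR3 with 8 in ANT008 replicate 2 and 5 in anti-PD-1 replicate 2. At the nucleotide level, 14 of 2018 in-frame Trbv24 rearrangements were found in at least 2 mice.

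The Trbv24 share of in-frame templates varied widely between mice, with the highest values in ANT008 and anti-PD-1 mice. In control mice it was 0.946%, 0.657%, 0.790% and 0.397% for replicates 1 to 4, and in ANT008 mice it was 0.776%, 1.44%, 8.29% and 8.18%. In anti-PD-1 mice it was 0.677%, 0.889%, 6.10% and 0.905%, and in combination mice 1.16%, 0.970%, 0.707% and 0.865%. ANT008 replicates 3 and 4 and anti-PD-1 replicate 3 thus stood above 6% while the other 13 mice stayed at or below 1.44%. Ordered by the mean, ANT008 was at 4.67% ± 4.12 (SD, n = 4), anti-PD-1 at 2.14% ± 2.64, combination at 0.926% ± 0.191 and control at 0.697% ± 0.233. Each step between neighbors in this order was smaller than the larger of both SDs. Without anti-PD-1 replicate 3, the anti-PD-1 mean was 0.824%, and without ANT008 replicate 3 or 4 the ANT008 mean was 3.47% or 3.50%.

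The number of distinct Trbv24 rearrangements varied far less. Trbv24 made up 1.56% ± 0.11 of in-frame unique rearrangements in control, 1.81% ± 0.07 in ANT008, 1.68% ± 0.15 in anti-PD-1 and 1.52% ± 0.02 in combination mice. The lowest mouse of all was at 1.46% and the highest at 1.89%, and all 4 ANT008 mice were above the control mean with 3 above the highest control mouse. These counts include minor nucleotide forms of CDR3s that had a very large rearrangement. In ANT008 replicate 4 such CDR3s had 4 and 5 forms, in ANT008 replicate 3 there were 4 and in anti-PD-1 replicate 3 there were 6. The forms other than the largest held 3, 4, 3 and 7 templates in this order. The comparison with control was not repeated without these forms and could change. With the largest Trbv24 rearrangement of each mouse left out, the template share was 0.489% ± 0.188 in control, 1.53% ± 1.22 in ANT008, 0.780% ± 0.104 in anti-PD-1 and 0.767% ± 0.143 in combination mice. ANT008 replicate 4 still held 3.33% after this removal, and the next highest mouse was ANT008 replicate 2 at 1.22%.

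**Figure D5:**
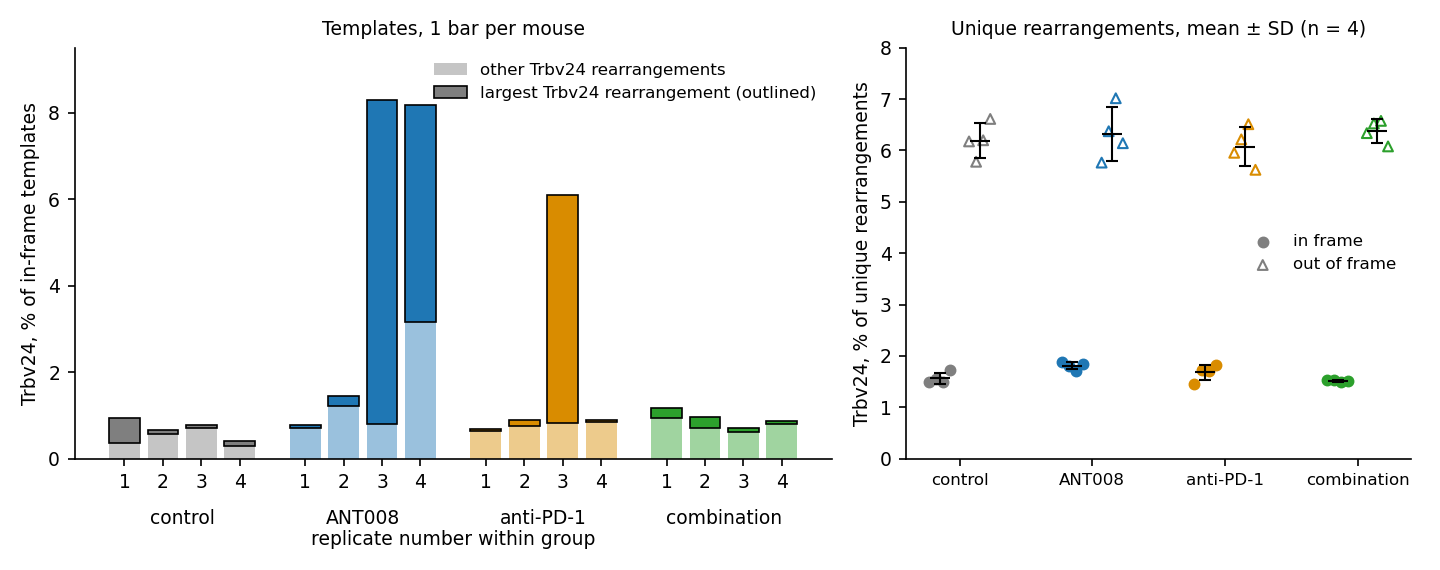
Left, Trbv24 as a percent of in-frame templates (y axis) in each mouse, with replicates 1 to 4 of each group along the x axis. The outlined upper piece of a bar is the largest Trbv24 rearrangement of that mouse and makes up most of the bars of ANT008 replicates 3 and 4 and anti-PD-1 replicate 3. Right, Trbv24 as a percent of unique rearrangements in frame (circles) and out of frame (triangles), 1 point per mouse with mean ± SD (n = 4), where in-frame values lie between 1.46% and 1.89%.

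The 3 mice with a high share each held 1 or 2 very large Trbv24 rearrangements. In total, 5 Trbv24 rearrangements in 4 mice reached 0.5% of in-frame templates, among 328 rearrangements of any V gene that did. Trbv24 made up 1.61% of all in-frame unique rearrangements. The 5 among 328 are near that share, so their number shows nothing particular to Trbv24. The next largest Trbv24 rearrangement was at 0.261% and was the leading one of combination replicate 2, joined to Trbj2-7. The deposited reads of the 5 at or above 0.5% are shown, with the codon upstream of the CDR3 and the CDR3 itself in capitals. Each read stops before the last codon of the CDR3.
Trbj2-7 clone, anti-PD-1 replicate 3: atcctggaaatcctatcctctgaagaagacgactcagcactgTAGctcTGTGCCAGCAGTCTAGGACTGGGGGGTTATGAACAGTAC
Trbj2-3 clone, ANT008 replicate 4: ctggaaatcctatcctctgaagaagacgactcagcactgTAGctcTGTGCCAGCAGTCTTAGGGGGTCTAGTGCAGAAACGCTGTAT
Trbj2-5 clone, ANT008 replicate 3: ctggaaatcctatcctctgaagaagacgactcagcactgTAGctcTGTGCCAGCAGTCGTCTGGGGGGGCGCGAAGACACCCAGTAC
Trbj2-1 clone, ANT008 replicate 4: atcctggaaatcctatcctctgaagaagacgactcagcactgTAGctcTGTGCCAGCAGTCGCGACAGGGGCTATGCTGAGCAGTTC
Trbj2-1 clone, control replicate 1: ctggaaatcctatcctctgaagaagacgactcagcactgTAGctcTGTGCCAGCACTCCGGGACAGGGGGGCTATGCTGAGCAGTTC
All 5 carried the TAG codon, as did the largest Trbv24 rearrangement of each of the 16 mice. Since 2023 of 2032 in-frame Trbv24 rearrangements (99.6%) carried this codon, these counts match the share over all of them and show nothing particular to large rearrangements.

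The Trbj2-7 clone of anti-PD-1 replicate 3 had 3827 templates, which is 5.27% of in-frame templates (95% Wilson interval 5.11% to 5.44%), and was the third in size in that mouse. It took up 86.5% of the in-frame Trbv24 templates. The Trbj2-5 clone of ANT008 replicate 3 had 864 templates, 7.49% of in-frame templates (7.02% to 7.98%), and was the second in its mouse. It took up 90.4% of the in-frame Trbv24 templates, and its nucleotide sequence was also found once in anti-PD-1 replicate 4. Trbv24 in these mice was thus nearly a single rearrangement by templates.

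In ANT008 replicate 4 the Trbj2-3 clone had 1044 templates, 5.03% of in-frame templates (4.74% to 5.33%), and was the second in size. The Trbj2-1 clone of the same mouse had 416 templates, 2.00% of in-frame templates (1.82% to 2.20%). They took up 61.4% and 24.5% of the in-frame Trbv24 templates, so this mouse, unlike both others, held a pair of large Trbv24 rearrangements. The Trbj2-1 clone of control replicate 1 was far smaller, with 150 templates and 0.577% of in-frame templates (0.492% to 0.676%). The intervals cover counting error only.

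The in-frame rearrangement of another V gene nearest in size in the same mouse is given for each as a description, since a nearest one always exists. The nearest to the clone of 3827 templates was a Trbv3 rearrangement of 4262, and the nearest to that of 864 was a Trbv19 rearrangement of 814. The nearest to the clone of 1044 templates was a Trbv16 rearrangement of 1014, and the nearest to that of 416 was a Trbv19 rearrangement of 428. The nearest to the control clone of 150 templates was a Trbv3 rearrangement of 147. Sequencing in bulk does not show which rearrangements share a cell, so whether any of these were a pair from 1 clone was not measured. The sizes were compared after the values were known.

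In the remaining 12 mice the largest Trbv24 rearrangement was small. It ranged from 4 templates in anti-PD-1 replicate 4 to 73 in ANT008 replicate 2, and no CDR3 was the largest in more than 1 mouse. In anti-PD-1 replicate 1 the first place was a tie at 11 templates.

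Clone size over all Trbv24 rearrangements rests on the in-frame templates for which the gene was chosen and is given without a test. Mean templates per in-frame rearrangement ranged from 1.41 to 22.4 with a median of 2.18 for Trbv24, and from 2.53 to 9.29 with a median of 4.29 for the others. Trbv24 was lower in 13 of 16 mice, and the log2 ratio averaged −0.39 ± 0.33 (SE, n = 16). Rearrangements with 1 template made up 71.5% of Trbv24 and 73.5% of the others, a difference of −2.0 ± 1.4 points (SE).

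Out-of-frame Trbv24 rearrangements, which did not enter the values for which the gene was chosen, were tested between treatments. Trbv24 made up 5.66% ± 2.03 (SD, n = 4) of out-of-frame templates in control, 8.70% ± 3.70 in ANT008, 5.91% ± 2.37 in anti-PD-1 and 6.35% ± 0.79 in combination mice. In control mice the values ran from 4.09% to 8.59% and in ANT008 mice from 6.24% to 14.1%, and the groups overlapped. The log2 fold change over control was 0.62 ± 0.45 (SE) for ANT008, 0.07 ± 0.45 for anti-PD-1 and 0.17 ± 0.45 for combination, with edgeR quasi-likelihood adjusted p of 0.345, 0.963 and 0.807. Across the 25 V genes tested, 0%, 16% and 4% were called in these comparisons, and Trbv24 was in none of them. The 4 calls for anti-PD-1 fell to 0 by unique rearrangements and when any 1 of 6 mice was left out, namely anti-PD-1 replicate 1 or 3, control replicate 2, ANT008 replicate 2 or combination replicate 1 or 2. The sign for anti-PD-1 and combination turned under TMM scaling and in DESeq2, and no fit called Trbv24. For ANT008 the log2 fold change fell to 0.193 under TMM scaling, 0.189 in DESeq2 and 0.031 by unique rearrangements. All 3 comparisons use the same control mice.

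By unique out-of-frame rearrangements, the Trbv24 share was 6.19% ± 0.34 in control, 6.32% ± 0.53 in ANT008, 6.08% ± 0.38 in anti-PD-1 and 6.38% ± 0.23 in combination mice. The highest out-of-frame template share, 14.1% in ANT008 replicate 4, came with an out-of-frame rearrangement of 379 templates, 5.91% of out-of-frame templates in that mouse. The largest out-of-frame Trbv24 rearrangement of the other groups had 793 templates in anti-PD-1 replicate 3, 455 in control replicate 2 and 160 in combination replicate 3. These were 3.23%, 1.96% and 0.664% of the out-of-frame templates of their mice. The largest was chosen by templates, so the depth of a mouse enters the choice. ANT008 replicate 4 and anti-PD-1 replicate 3 therefore held large Trbv24 rearrangements both with and without an in-frame CDR3.

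The V genes whose in-frame template share followed that of Trbv24 most closely over the 16 mice were Trbv19 (Spearman rho 0.579), Trbv10 (0.497) and Trbv17 (0.488). They are the highest of many coefficients, and the largest in size was negative, −0.626 for Trbv13-2. Trbv23 was at −0.40 and Trbv26 at −0.126. Trbv10 had only 54 in-frame rearrangements over all mice and a mean share of 0.0587%, so its ranks rest on very low counts. These coefficients describe shares that sum to a fixed total in each mouse and carry no test.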

How the data were processed

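Per the labels, magnetically selected tumor T cells were profiled by immunoSEQ, in which V and J primers amplify the TCRβ junction. The deposited files hold 1 line per unique 87-nucleotide rearrangement with a template count estimated by the service (counts), V and J genes, reading frame, and CDR3 length, trimming and insertions in nucleotides. Read columns were empty and no build is named, so no coordinates are given. The software version was not given in the sources used here. In-frame templates per mouse ranged from 7180 to 72588 and out-of-frame templates from 3609 to 24523, which sets the precision of each share, and unresolved V genes took up at most 0.0433% of in-frame templates. V names were matched to GRCm38.p6 RefSeq symbols (35 of 35).

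Groups follow the treatments given in the labels. The file headers give the same 4 groups, but their animal number equals the label's number in 3 of 16 samples. Each sample was taken as 1 mouse. Within-mouse differences between Trbv24 and other V genes were tested by exact two-sided sign-flip permutation over 65536 sign patterns, with Benjamini-Hochberg adjustment within each family and a threshold of 0.05. In-frame over out-of-frame ratios used a pseudocount of 0.5 on counts and V genes with at least 50 out-of-frame rearrangements. J genes under 0.1% of rearrangements stayed out. Out-of-frame template counts were tested with edgeR quasi-likelihood, all 16 samples in 1 fit and library size fixed at the sample's out-of-frame templates.

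Named genes and clones were Trbv24, Trbv23 and Trbv26, annotated pseudogenes as a group, the 3 V genes with the highest Spearman rho, J genes past the test or most used, each mouse's largest Trbv24 rearrangement, Trbv24 rearrangements of at least 0.5%, the 5 most shared CDR3s and each group's largest out-of-frame rearrangement. Trbv13-2, Trbv21, Trbv22, Trbv29 and Trbv30 were named after their values were seen. Members, lists and tests were chosen with earlier results of these data known. Alternatives covered scaling, filters, templates, depth, single templates and leaving out each mouse. Scripts were tested on simulated data. Tools were Python 3.11.15, NumPy 2.4.6, pandas 2.3.3, SciPy 1.17.1, matplotlib 3.10.9, R 4.3.3, edgeR 4.0.16 and DESeq2 1.42.0.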

Additional observations from a re-analysis of the deposited data

Results flagged for a closer look

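Within groups of 4 mice, 5 values stood apart from the other 3 among 40 sets of values examined. They were picked by Dixon's ratio, the gap to the nearest value over the range of all 4. The sets are overlapping measures of the same mice, and all 5 values include the in-frame templates for which the gene was chosen. They are therefore given as a description, and their number cannot be set against a chance rate. In anti-PD-1 replicate 3, Trbv24 made up 6.10% of in-frame templates against 0.677% to 0.905% in the other anti-PD-1 mice, and 6.66% of all templates against 1.75% to 2.29%. In the same mouse its largest rearrangement took up 86.5% of in-frame Trbv24 templates against 5.05% to 14.9%, and the mean was 18.7 templates per in-frame Trbv24 rearrangement against 1.41 to 2.75. In control replicate 1, which holds the clone of 150 templates, the mean was 4.24 templates per in-frame Trbv24 rearrangement against 1.96 to 2.11. The first 4 values all rest on 1 rearrangement. Whether its size reflects cells or molecules per cell was not tested.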

How the results depend on the processing

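The lower in-frame than out-of-frame share of Trbv24 and its lower CDR3 sharing kept direction and call under every alternative tried. Leaving out each mouse in turn moved the first between −1.95 and −1.91 (log2), the second between −13.7 and −12.9 points, and the count of V genes lower in frame between 7 and 8. The same omissions gave 2 to 3 J genes, −0.017 to 1.34 points for Trbj2-5, 0.625 to 0.708 nucleotides for CDR3 length, 0.36 to 0.427 for N insertions, 0.49 to 0.611 for V trimming and −0.19 to −0.15 for J trimming. Clone size ranged from −0.57 to −0.27 (log2) and single-template rearrangements from −2.71 to −1.48 points. For out-of-frame templates over control the omissions gave 0.29 to 0.89 for ANT008, −0.20 to 0.34 for anti-PD-1 and 0.04 to 0.44 for combination (log2). The in-frame template share minus control ran from 2.77 to 5.27 points for ANT008, 0.126 to 1.93 for anti-PD-1 and 0.128 to 0.311 for combination.

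Leaving out single-template rearrangements gave 0 J genes and ended the calls on CDR3 length (−0.10), N insertions (0.235) and J trimming (−0.20 nucleotides), with a log2 in-frame ratio of 0.077 for Trbv26 and a Trbj2-5 difference of −0.35 points. Counting templates gave 0 J genes, J trimming of −0.38 nucleotides, no longer called, and −0.041 for Trbv23. Out-of-frame rows gave 1 J gene. Without anti-PD-1 replicate 4 the Trbj2-5 difference was −0.017 points. Without the largest rearrangements the clone size ratio was −0.94, a removal that by construction weighs more on Trbv24 with its fewer rearrangements, and at equal depth (7180 templates) the single-template difference was 2.41 points. Out of frame, TMM gave −0.44 for anti-PD-1 and −0.19 for combination, DESeq2 −0.47 and −0.12, and unique rearrangements −0.00088 for anti-PD-1, all uncalled. V genes called out of frame numbered 0, 4 and 1 in the order ANT008, anti-PD-1 and combination, against 0, 0 and 0 under TMM (at an unadjusted p under 0.05, 6, 6 and 6), 1, 1 and 3 in DESeq2, 0, 0 and 3 without a filter and 0, 0 and 0 by unique rearrangements. Leaving out 1 mouse gave 0 to 1, 0 to 5 and 0 to 3. ANT008 minus control in in-frame share was 1.04 points without the largest Trbv24 rearrangements and 0.247 by unique rearrangements, where combination minus control was −0.044. The causes of these moves were not tested.

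Deviations of out-of-frame V gene shares from group means correlated at −0.0011 on average in 24 pairs of same-numbered mice, with a range of −0.33 to 0.33. In pairs with different numbers the average was 0.00095. This used the numbers in the labels, and pairs by the animal numbers of the file headers were not checked, so pairing or a shared batch was not settled. With a replicate block the out-of-frame log2 values were 0.60, 0.09 and 0.22 (edgeR adjusted p = 0.439, 0.945 and 0.843), and in-frame share differences within numbers were 3.97, 1.44 and 0.229 points. Comparison across mice is limited by 4 per group, and Trbv24 had only 46 to 237 in-frame rearrangements per mouse.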
